A study of Homo sapiens with 4 samples.

Results

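A set of 9 genes of vascular growth factor and semaphorin signalling were followed across single MCF10A cells: the ligands VEGFA, VEGFB, VEGFC and SEMA3C, the neuropilins NRP1 and NRP2, and the plexins PLXNA1, PLXNB2 and PLXND1. They were chosen by name, and all 9 had a row in each plate, out of 19577 genes with a row in any plate. The cells, MCF10A_H2B_GFP, are a mammary epithelial line of human origin that is not transformed and carries a GFP-tagged histone. All 4 plates held cells of a circular patch of 10000 seeded cells, grown for 6 days on fibronectin in medium with donor equine serum, EGF, hydrocortisone, cholera toxin and insulin, as a flat model of a tumour edge. Cells were phototagged by region with a photoactivatable dye under a microscope, in 2 low-resolution plates (3 concentric rings of 1000 to 1500 µm) and 2 high-resolution plates (the outermost 250 µm, the 250 µm inside it and the remainder), and their RNA was read by SORT-seq, a plate method that labels each transcript with a unique molecular identifier (UMI). Live single cells were sorted into the plates. Regions were not analysed here, so the values are for all sorted cells of a plate, whose mix of regions is not known and may differ between plates, and each plate is 1 replicate. The study calls the plates of a group biological replicates, and p-values measure the spread between these plates.

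VEGFs are secreted growth factors best known for driving growth and permeability of blood and lymph vessels through the receptor tyrosine kinases FLT1, KDR and FLT4. Neuropilins are co-receptors with a short intracellular tail that bind VEGFs as well as class 3 semaphorins, and plexins are the receptors that pass the semaphorin signal to small GTPases and the cytoskeleton. In epithelial cells both systems have been studied in migration and in the epithelial-to-mesenchymal transition (EMT), in which cells lose cadherin-based junctions and gain mesenchymal genes such as VIM and FN1.

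After removal of wells with fewer than 2000 or more than 9000 features or with 40% or more mitochondrial counts, 1146 cells of 1536 wells were kept, between 271 and 293 a plate. Median depth was 29185 to 39240 UMIs per cell. Keratins of a basal mammary line were abundant, with KRT5 at 1757 to 2315 CPM (counts scaled to a common total over the summed cells of a plate), while the basal factor TP63 stood at 0.739 to 1.05 CPM. Endothelial markers summed to 15.7 to 22.0 CPM, nearly all of it PECAM1, and the defining markers CDH5, VWF and TEK reached at most 0.202 CPM. Immune markers summed to 7 to 11.4 CPM and fibroblast markers to 0.595 to 4.30 CPM. Going by file names, low-resolution replicate 1 was run on a separate flow cell from the other 3 plates.

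The genes lie on chromosomes 6 (VEGFA), 11 (VEGFB), 4 (VEGFC), 7 (SEMA3C), 10 (NRP1), 2 (NRP2), 3 (PLXNA1 and PLXND1) and 22 (PLXNB2). In RefSeq on GRCh38.p14, VEGFC spans chr4:176683538-176792922 and SEMA3C chr7:80742538-80922389, both on the minus strand, and NRP1 spans chr10:33177493-33334667. Of the 4 genes that were higher in mesenchymal-like cells, VEGFC, SEMA3C and PLXND1 have RefSeq promoter entries, and the 250 bases before each start are given here 5′ to 3′ on the gene's strand, with GC boxes (GGGCGG on either strand) in capitals. SEMA3C has a pair of annotated starts.
VEGFC, GRCh38.p14 chr4:176792923-176793172, minus strand: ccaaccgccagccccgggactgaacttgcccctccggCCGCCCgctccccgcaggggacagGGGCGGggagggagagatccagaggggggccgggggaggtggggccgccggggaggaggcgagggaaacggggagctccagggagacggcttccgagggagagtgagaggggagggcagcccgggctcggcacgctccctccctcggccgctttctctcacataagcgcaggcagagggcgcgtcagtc
SEMA3C upstream start, GRCh38.p14 chr7:80922390-80922639, minus strand: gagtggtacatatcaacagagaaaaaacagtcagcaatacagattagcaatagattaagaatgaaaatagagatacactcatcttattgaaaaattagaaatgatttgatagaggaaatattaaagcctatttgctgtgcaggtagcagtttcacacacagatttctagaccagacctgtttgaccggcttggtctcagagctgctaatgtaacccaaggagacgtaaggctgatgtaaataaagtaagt
SEMA3C downstream start, GRCh38.p14 chr7:80919052-80919301, minus strand: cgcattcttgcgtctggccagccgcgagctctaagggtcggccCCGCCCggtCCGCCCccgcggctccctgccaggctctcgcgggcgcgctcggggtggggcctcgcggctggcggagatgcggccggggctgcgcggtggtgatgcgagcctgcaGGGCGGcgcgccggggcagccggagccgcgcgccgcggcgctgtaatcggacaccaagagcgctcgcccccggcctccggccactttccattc
PLXND1, GRCh38.p14 chr3:129606677-129606926, minus strand: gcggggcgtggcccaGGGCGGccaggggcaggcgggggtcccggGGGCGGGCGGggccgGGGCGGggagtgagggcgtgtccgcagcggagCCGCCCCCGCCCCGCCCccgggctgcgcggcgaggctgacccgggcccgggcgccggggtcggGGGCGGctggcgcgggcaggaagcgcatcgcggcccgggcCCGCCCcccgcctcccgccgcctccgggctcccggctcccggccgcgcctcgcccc
The 2 SEMA3C starts differ in base composition: 36.4% of the upstream and 77.6% of the downstream window is G or C, against a median of 58.0% over 35116 RefSeq promoters, 74% for VEGFC and 88.8% for PLXND1. GC boxes stood in 42.6% of all promoters and in windows of all 7 genes with an entry, though not at the upstream SEMA3C start. The E-box bound by SNAI and ZEB repressors (CAGGTG, either strand) was in 17.5% of all promoters and in none of these 7 genes' windows, as were the AP-1 motif TGANTCA (6.57% of all) and the TEAD motif GGAATG (11.9% of all). The core E-box CANNTG, which overlaps CAGGTG, was in 61.8% of all promoters and in those of VEGFB, NRP2 and PLXNB2.

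SEMA3C, a secreted class 3 semaphorin, was the most abundant of the 9 transcripts. SORT-seq counts the 3′ end of each molecule once, so levels in CPM need no scaling for length. SEMA3C measured 490.1, 432, 458 and 443 CPM in low-resolution replicates 1 and 2 and high-resolution replicates 1 and 2 (mean 456 ± 25.4, SD, n = 4), and 99.3% to 100% of cells held a UMI of it. The 4 plates lay close together.

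Among the VEGF ligands, VEGFA measured 100.1, 91.5, 76.2 and 94.7 CPM in the same order (90.6 ± 10.2, SD, n = 4), VEGFC, a ligand of lymphatic vessel growth, 40.4, 31.0, 41.7 and 48.7 CPM (40.5 ± 7.27), and VEGFB 32.2, 34.7, 27.0 and 29.5 CPM (30.9 ± 3.32). VEGFA thus stood above both other VEGFs in each plate, whereas VEGFC and VEGFB overlapped. The other ligands of the family, PGF and VEGFD, summed to 0.595 to 1.11 CPM.

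NRP1 measured 38.6, 34.7, 47.1 and 50.6 CPM (42.7 ± 7.34, SD, n = 4) and NRP2 17.0, 21.5, 24.1 and 22.5 CPM (21.3 ± 3.05). NRP1 exceeded NRP2 in all 4 plates. PLXNB2, a receptor of class 4 semaphorins, was the most abundant of the 3 plexins at 93.0, 87.2, 71.2 and 67.4 CPM (79.7 ± 12.4). PLXNA1, which signals with neuropilins, measured 20.2, 21.4, 21.9 and 18.3 CPM (20.5 ± 1.58), a range that overlapped that of NRP2, and PLXND1, a plexin for semaphorins studied mostly in vessels, was rare at 3.44, 2.87, 2.97 and 3.03 CPM (3.08 ± 0.247). PLXND1 rested on 29 to 41 UMIs a plate.

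With every cell thinned to 10000 UMIs, a UMI of SEMA3C was found in 95.1% to 97.2% of cells, of PLXNB2 in 50% to 62.4%, of VEGFA in 44.4% to 55.7%, of NRP1 in 24.6% to 36.8%, of VEGFC in 21.6% to 34.4%, of VEGFB in 25.4% to 28.7%, of NRP2 in 10.8% to 25.4%, of PLXNA1 in 12.0% to 21.8% and of PLXND1 in 2.41% to 3.83%. Between 2 and 7 cells a plate were too shallow for thinning. For NRP1 the exact binomial 95% intervals ran from 21.8% to 32.4% in low-resolution replicate 1 and from 31.2% to 42.6% in high-resolution replicate 2, and such intervals cover counting error only. In the 50 to 63 wells a plate with fewer than 2000 features, at median depths of 1903.5 to 5144 UMIs, NRP1 had a UMI in 1.72% to 10.0% of wells and SEMA3C in 31.0% to 54.0%. These wells hold little RNA and are given as a background, not as cells that lack the genes.

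**Figure D1:**
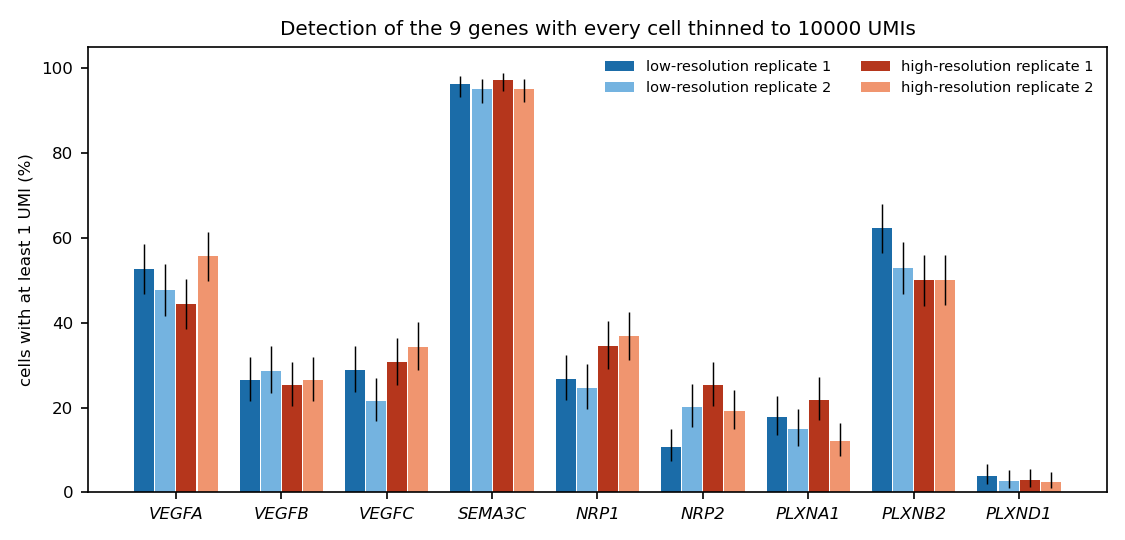
Share of cells with at least 1 UMI of each gene after thinning every cell to 10000 UMIs, as a bar for each plate with the exact binomial 95% interval. SEMA3C was found in 95.1% to 97.2% of cells of the 4 plates and PLXND1 in 2.41% to 3.83%.

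The spread of UMIs over cells was also measured for each gene. At 10000 UMIs per cell, the variance of VEGFA counts was 2.08 to 2.57 times their mean over the 4 plates (a ratio of 1 is what counting alone gives), and single cells at full depth held up to 40 UMIs of it. SEMA3C had a ratio of 2.57 to 3.70, NRP1 of 1.33 to 1.64 and VEGFC of 1.26 to 1.70. Mean UMIs per cell were 4.71 to 5.23 for SEMA3C, 0.873 to 1.19 for VEGFA, 0.362 to 0.581 for NRP1 and 0.317 to 0.488 for VEGFC. The ratio depends on the mean as well, so it does not rank genes of unlike level by unevenness. VEGFB, with 0.999 to 1.19, and PLXNA1, with 1.07 to 1.13, were spread nearly as counting noise would spread them. Genes with a mean between 0.2 and 0.6 UMIs per cell had a median ratio of 1.09 to 1.12 and a 95th percentile of 1.49 to 1.64. NRP1 lay below that percentile in each plate, and VEGFC above it in low-resolution replicate 2 only. This background does not cover SEMA3C and VEGFA, whose means were higher.

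The receptor kinases of the VEGFs were at low levels in these cells. FLT1, KDR and FLT4 summed to 6.06, 6.94, 3.33 and 2.59 CPM in low-resolution replicates 1 and 2 and high-resolution replicates 1 and 2, and at equal depth a UMI of any of them was found in 3.52% to 6.72% of cells. A neuropilin was found in 35.9% to 49.8% of cells at that depth, and a VEGF (A, B or C) in 69.0% to 79.0%. At full depth a VEGF was found in 93.1% to 97.3% of cells and a neuropilin in 65.6% to 79.5%. Both together were found in 63.5% to 77.8% of cells at full depth and in 27.6% to 39.5% at equal depth. SEMA3C with a neuropilin and PLXNA1 or PLXND1 was found in 37.1% to 49.1%, falling to 7.84% to 13.4% at equal depth. These joint shares were not set against the product of the separate shares, so they do not show co-expression. Of the other plexins, PLXNA3 was at 22.0 to 28.5 CPM and PLXNA2 at 10.5 to 18.4 CPM, while PLXNC1 and PLXNA4 stayed below 0.5 CPM.

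To relate the 9 genes to EMT, each cell was given a score, that of 103 mesenchymal genes minus that of 64 epithelial genes by gene set variation analysis. None of the 9 is in either list, so none of them entered the score. The cells of each plate were divided into tertiles of the score, the counts of the lowest (epithelial-like) and highest (mesenchymal-like) tertile were summed, and the 4 pairs of sums were compared. A tertile is a range and not a cell type: 30 to 42 cells a plate lay within 0.05 of a limit. The tertiles also differed in other ways. Median mitochondrial share was 31.7% to 33.8% in the lowest and 25.9% to 29.0% in the highest tertile, and the G2/M score was higher in the highest tertile of each plate. Of 5 basal line markers tested, KRT5 (log2 fold change -0.80, SE 0.12), KRT17 (-0.75, SE 0.14) and KRT6A (-0.66, SE 0.25) were lower in the highest tertile, as was GATA3, the 1 luminal marker tested (-0.96, SE 0.15), while PECAM1 (0.16, SE 0.19) and CD68 (0.47, SE 0.22), the endothelial and immune markers tested, were not called and no fibroblast marker had enough counts. The part of these differences in the results was not tested. For some of the 9 genes, values at equal depth or given the cell cycle scores stand beside the result. At equal depth the score and its tertiles were computed anew from the thinned counts, so the tertiles need not hold the same cells.

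Of 11296 genes tested across tertiles, 4633 (41%) were called, meaning an adjusted p under 0.05 in edgeR's quasi-likelihood test with Benjamini-Hochberg adjustment and the plate as a term. Of the 9 genes, 5 were called: VEGFC, SEMA3C, NRP1 and PLXND1 were higher in mesenchymal-like cells and VEGFA was lower. Over all genes, 20.9% were called higher and 20.1% lower. The median log2 fold change was 0.18 over the 9 genes and 0.01 over all genes tested.

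NRP1, the co-receptor for VEGFs and class 3 semaphorins, changed most. Its level in the lowest tertile was 9.55, 5.68, 8.02 and 11.6 CPM in low-resolution replicates 1 and 2 and high-resolution replicates 1 and 2, and in the highest 90.7, 87.1, 92.6 and 97.1 CPM. The plates lay close together in the highest tertile and were more spread, relative to their level, in the lowest, and the tertiles did not overlap. The log2 fold change was 3.32 (SE 0.14, edgeR adjusted p = 6.06e-09, n = 4 plates), a 10.0-fold difference, and it was 3.30 at equal depth. In the middle tertile NRP1 stood at 19.1 and 15.7 CPM in the low-resolution and at 47.5 and 42.5 CPM in the high-resolution plates. The median score of that tertile was -0.03 and -0.21 in the low-resolution and 0.31 and 0.15 in the high-resolution plates. Scores were fitted separately for each experiment, so these medians are not on a common scale. NRP2 showed no such pattern. It measured 18.3, 26.8, 21.1 and 19.1 CPM in the lowest and 17.3, 18.1, 29.1 and 24.8 CPM in the highest tertile, which overlap (log2 fold change 0.01, SE 0.17, edgeR adjusted p = 0.979).

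Of the ligands, VEGFC rose with the score from 22.7, 15.7, 8.02 and 20.2 CPM in the lowest tertile to 74.1, 61.2, 84.0 and 90.8 CPM in the highest. Each plate rose, and the lowest value of the highest tertile was above every value of the lowest. Its log2 fold change was 2.18 (SE 0.20, edgeR adjusted p = 4.33e-06, n = 4 plates) and 1.99 at equal depth. SEMA3C rose 1.85-fold, from 353, 334, 298 and 311 CPM to 704, 615, 613 and 592 CPM, with no overlap (log2 fold change 0.89, SE 0.07, edgeR adjusted p = 1.15e-06), and by 0.86 on the log2 scale at equal depth. VEGFB, at 36.3, 30.3, 25.7 and 25.5 CPM against 27.3, 37.8, 32.6 and 31.2 CPM, overlapped between tertiles and was not called (0.07, SE 0.14, edgeR adjusted p = 0.715).

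VEGFA was the gene of the group that went the other way. It measured 141, 106, 94.3 and 108 CPM in the lowest tertile and 60.0, 54.0, 63.0 and 94.2 CPM in the highest. VEGFA fell in each plate, although the highest value of the mesenchymal-like cells, in high-resolution replicate 2, was just below the lowest value of the epithelial-like cells. Its log2 fold change was -0.80 (SE 0.15, edgeR adjusted p = 9.48e-04, n = 4 plates) and -1.13 at equal depth.

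Among plexins, PLXND1 was at 1.91, 1.89, 1.60 and 1.36 CPM in the lowest and 6.59, 4.37, 4.57 and 4.24 CPM in the highest tertile, from 6 or 7 and 14 to 21 UMIs a plate. The tertiles did not overlap, with low-resolution replicate 1 the highest (log2 fold change 1.45, SE 0.30, edgeR adjusted p = 0.00228), but at equal depth the gene had too few counts to be tested. PLXNA1 (log2 fold change 0.18, SE 0.13, edgeR adjusted p = 0.273) and PLXNB2 (-0.12, SE 0.09, edgeR adjusted p = 0.289) were not called, although PLXNB2 was called lower (-0.27) when wells were kept whatever their mitochondrial share. PLXNB2 had its lowest level in the middle tertile in each plate, at 78.9, 76.9, 67.5 and 64.0 CPM.

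**Figure D2:**
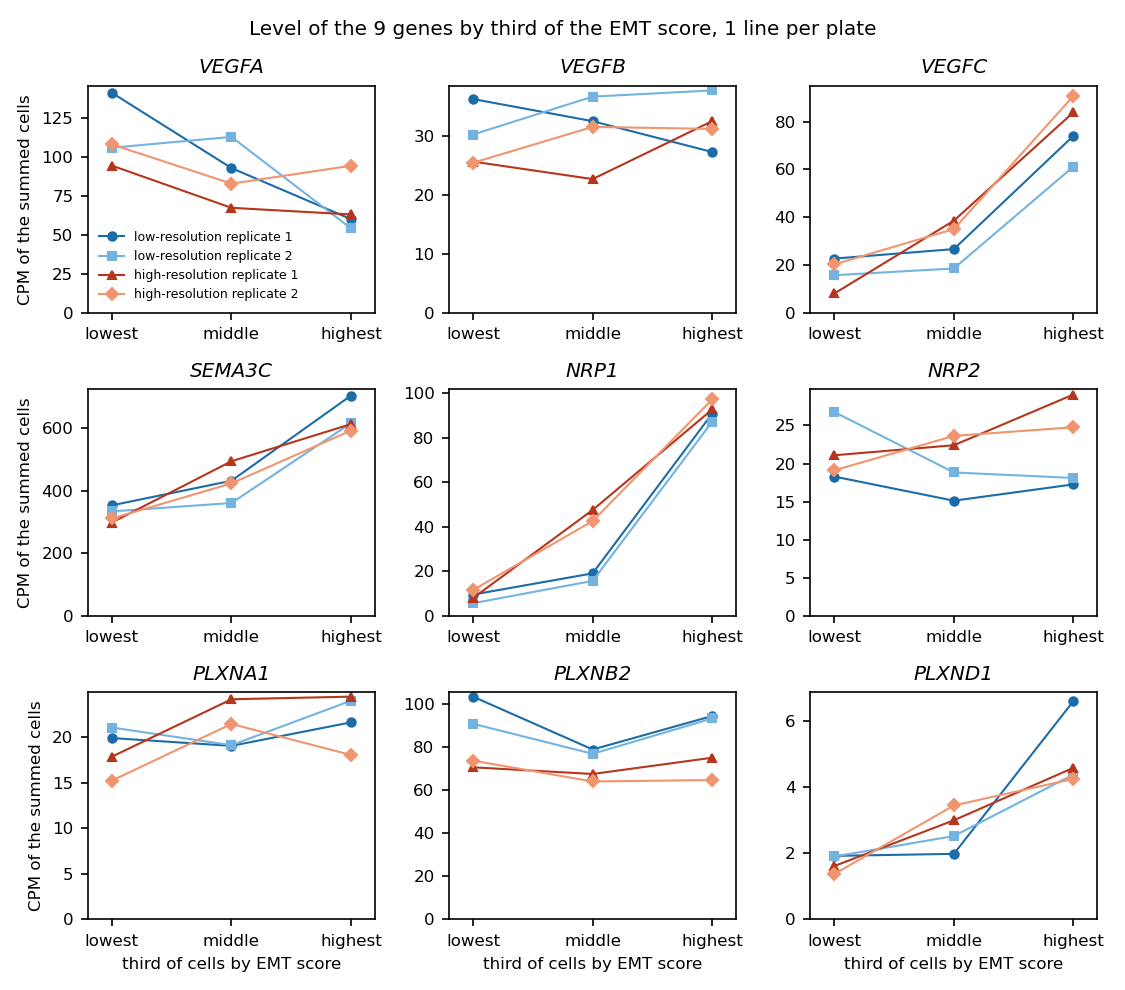
Level of each gene in CPM (y axes, starting at 0) in the lowest, middle and highest tertile of cells by EMT score, with 1 line for each plate. NRP1 rose from 5.68 to 11.6 CPM in the lowest tertile to 87.1 to 97.1 CPM in the highest, VEGFA fell in all 4 plates, the lines of VEGFB, NRP2 and PLXNB2 go both ways, and PLXNA1 was higher in the highest than in the lowest tertile in all 4 plates but not called.

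The other genes of both pathways were split. KDR, the main signalling receptor of VEGFA, was rare and lower in mesenchymal-like cells, at 6.82, 11.1, 5.96 and 3.18 CPM in the lowest and 1.57, 1.87, 0.269 and 1.12 CPM in the highest tertile (log2 fold change -2.50, SE 0.37, edgeR adjusted p = 2.06e-04), from at most 41 UMIs a plate and tertile. Of 4 other plexins tested, PLXNA2 was higher (1.75, SE 0.20), PLXNB1 (-0.69, SE 0.22) and PLXNB3 (-0.95, SE 0.24) were lower and PLXNA3 was not called. Of 3 other class 3 semaphorins tested, SEMA3A (1.25, SE 0.26) and SEMA3F (0.91, SE 0.20) were higher. Class 4 to 7 semaphorins went both ways, with 3 of 6 tested higher and 3 lower. Among them were SEMA4A at -2.27 (SE 0.41) and SEMA7A at 1.02 (SE 0.26), all as log2 fold changes. Beside these counts, 20.9% of all genes tested were called higher and 20.1% lower.

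Of 22 listed partners of neuropilins and plexins, 18 outside the score were tested, 8 were higher and 2 lower. The shares over all genes tested were 20.9% higher and 20.1% lower. FYN, a kinase downstream of plexin-A, rose by 1.87 (SE 0.25) on the log2 scale, MICAL2, of a family of actin oxidases, by 1.17 (SE 0.10), RRAS, a small GTPase that plexins inactivate, by 0.91 (SE 0.10) and MET, a receptor kinase that associates with plexins and neuropilins, by 0.68 (SE 0.08). GIPC1, the adaptor that binds the NRP1 tail, and MYO6, the motor that GIPC1 recruits, were the 2 that fell. GIPC1 went from 178, 201, 202 and 188 CPM in the lowest tertile to 79.7, 79.9, 98.2 and 73.4 CPM in the highest (log2 fold change -1.29, SE 0.08, edgeR adjusted p = 2.51e-07), and MYO6 fell by 0.93 (SE 0.10) on the log2 scale. Across cells, NRP1 and GIPC1 had a mean Spearman rho of -0.37 (-0.42 to -0.32 over plates), and a partial rho of -0.06 given the score.

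Across single cells of a plate, log-normalized levels of NRP1 followed the score most closely, ahead of SEMA3C and VEGFC. These are descriptions over 271 to 293 cells that share a library, depth and cell state. NRP1 had a rho with the EMT score of 0.60, 0.59, 0.69 and 0.65 in low-resolution replicates 1 and 2 and high-resolution replicates 1 and 2, SEMA3C 0.47, 0.40, 0.47 and 0.46, and VEGFC 0.36, 0.29, 0.57 and 0.55. NRP1 and SEMA3C passed 0.3 in all 4 plates, a limit that 2.32% of 7959 genes outside the score passed with positive sign and 2.41% with negative sign, and without low-resolution replicate 2 VEGFC passed it too, for 3 of the 9 genes. VEGFA ranged from -0.29 to -0.10 (mean -0.17, and -0.14 given the S and G2/M scores), PLXND1 from 0.10 to 0.16, and NRP2, VEGFB, PLXNA1 and PLXNB2 had both signs. At equal depth the means were 0.47 for NRP1, 0.37 for SEMA3C and 0.31 for VEGFC, and given the S and G2/M scores 0.61, 0.51 and 0.43.

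Single EMT markers, all of which are part of the score, gave a finer picture. NRP1 went against the junction genes CDH1 (mean rho -0.50, -0.54 to -0.45 over plates) and EPCAM (-0.49, -0.59 to -0.39) and with FN1 (0.55), VIM (0.49), the transcription factor SNAI2 (0.46, 0.39 to 0.52) and, less, ZEB1 (0.27). SEMA3C followed the matrix gene FN1 (0.55, 0.47 to 0.64) more closely than VIM (0.23, 0.20 to 0.26) or SNAI2 (0.25), with no overlap of the plates. FN1 was found in 68.6% to 91.1% of cells, SNAI2 in 64.2% to 87.4% and VIM in 32.5% to 58.1%. The part of detection in these values was not tested. VEGFC had similar values with FN1 (0.40) and VIM (0.40), and its rho with VIM was 0.27 and 0.24 in the low-resolution and 0.55 and 0.52 in the high-resolution plates. VEGFA had a positive rho with CDH1 in each plate, of 0.29 and 0.28 in the low-resolution and 0.05 and 0.11 in the high-resolution plates. CDH2, found in 3.69% to 8.53% of cells, gave weak values with all 9 genes.

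**Figure D3:**
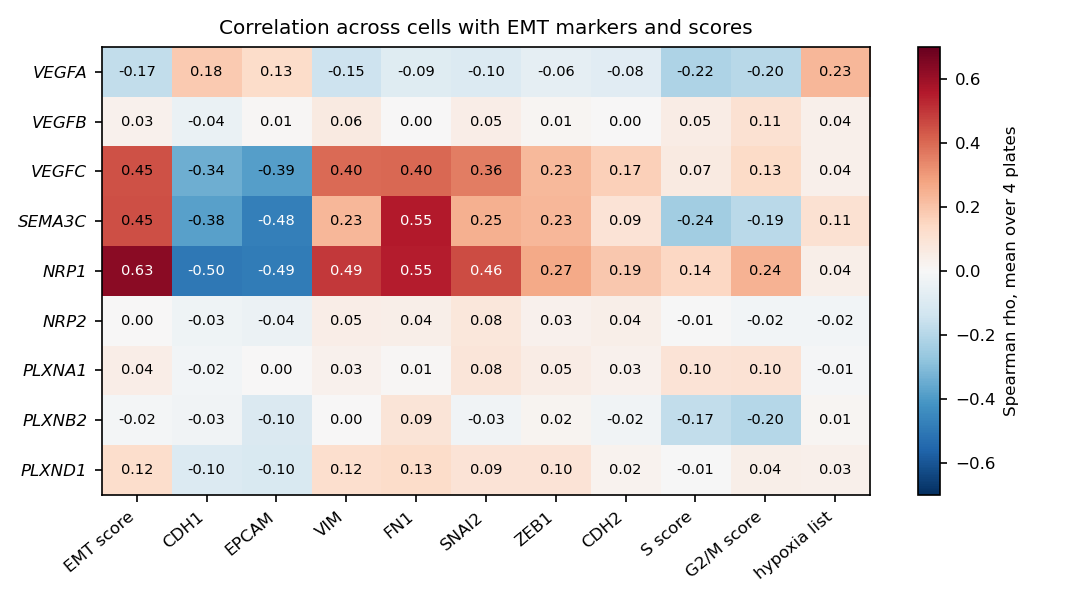
Spearman rho across cells, averaged over the 4 plates, of each gene (rows) with the EMT score, 7 EMT markers, S and G2/M scores and a hypoxia list (columns). NRP1, SEMA3C and VEGFC are positive with the score and with mesenchymal markers and negative with CDH1 and EPCAM, while VEGFA has the opposite signs and a value of 0.23 with the hypoxia list.

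VEGFA, a textbook target of the hypoxia-induced factors, had a mean rho of 0.23 (0.15 to 0.31 over plates) with a list of 14 hypoxia targets. At equal depth its mean was 0.18. The other 8 genes had means between -0.02 and 0.11, but SEMA3C ranged from 0.04 to 0.22 over plates, which overlaps the range of VEGFA. It was lower in cells with a higher S score (-0.26 to -0.18 over plates) and G2/M score (-0.34 to -0.13). NRP1 had rho of 0.12 to 0.19 with the S and 0.19 to 0.29 with the G2/M score, SEMA3C -0.33 to -0.16 and -0.26 to -0.15. Of a list of 8 ATF4 stress genes, which includes ATF4 itself, 2 were higher in mesenchymal-like cells (ATF4 and SESN2) and TRIB3 was lower. Over all genes tested, 20.9% were called higher and 20.1% lower. Between tertiles 3 of 12 hypoxia targets tested were higher, among them BNIP3 (log2 fold change 0.78, SE 0.08), and 3 lower, among them SLC2A1 (-0.57, SE 0.08).

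Co-expression among the 9 genes was weak apart from VEGFC, SEMA3C and NRP1. Over the 36 pairs, the mean rho over plates had a median of 0.038, against 0.020 over 32252496 pairs of the 8032 genes found in at least 20% of cells of each plate (PLXND1 is not among these). VEGFC and NRP1 were highest, with 0.39 (0.21 to 0.50 over plates), a value reached by 0.111% of all pairs. SEMA3C and NRP1 had 0.29 (0.16 to 0.38), VEGFC and SEMA3C 0.24 (0.23 to 0.26), and SEMA3C and PLXNB2 0.16 (0.06 to 0.21). The first 3 of these exceeded 0.2, as did 1.19% of all pairs. The lowest was VEGFA and NRP1 with -0.08 (-0.26 to 0.08).

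Given the EMT score, the pairs separated. SEMA3C and NRP1 fell to a partial rho of 0.02 (-0.10 to 0.08 over plates) and VEGFC and SEMA3C to 0.04 (-0.05 to 0.13). VEGFC and NRP1 kept 0.15 (0.04 to 0.24), positive in each plate, and SEMA3C and PLXNB2 had 0.18 (0.10 to 0.23), which was not lower than before. At equal depth, without the score, VEGFC and NRP1 had 0.18 (0.15 to 0.20).

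**Figure D4:**
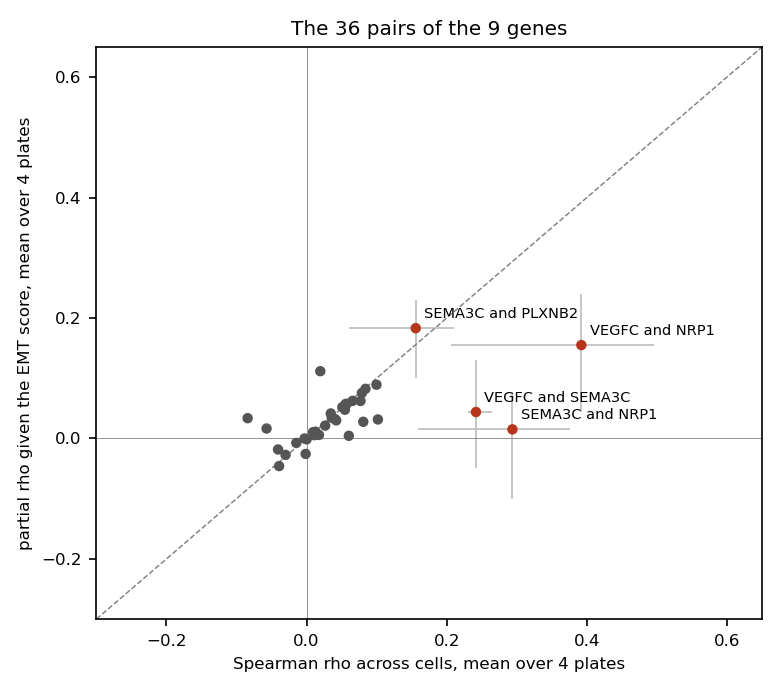
Each point is 1 of the 36 pairs, with Spearman rho across cells (x axis) and partial rho given the EMT score (y axis), both means over 4 plates. Grey bars on the 4 red pairs give the range over plates and the dashed line marks equal values: SEMA3C and NRP1 go from 0.29 to 0.02, and SEMA3C and PLXNB2 lie above the line.

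Detection in the same cell was counted next. At equal depth, 11.5%, 7.46%, 14.4% and 16.8% of cells in low-resolution replicates 1 and 2 and high-resolution replicates 1 and 2 held UMIs of VEGFC as well as NRP1, which was 1.48, 1.40, 1.37 and 1.33 times the product of their separate shares. For VEGFA and NRP1 the ratio was 0.889, 0.603, 0.943 and 0.940 at equal depth, but 1.00, 0.937, 1.05 and 1.03 at full depth. In low-resolution replicate 2 at equal depth the product for VEGFA and NRP1 was 11.8%. The exact binomial 95% interval of their shared detection there was 4.32% to 10.9%, and in every other case the product lay inside it. Such intervals cover counting error within a plate only and take the product as fixed, so independence was not tested. NRP1 and NRP2 were found together in 1.74%, 4.85%, 10.6% and 6.19% of cells, with ratios of 0.601, 0.978, 1.21 and 0.874 that lie on both sides of 1. At equal depth nearly all cells with NRP1 (96.3% to 100%) also held SEMA3C, as did nearly all cells of any kind.

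Among genes found in at least 20% of cells of each plate, the ones most like NRP1 were EMP3 (mean rho 0.62), NT5E (0.59) and MT2A (0.59), and the most opposed was FXYD3 (-0.61). VEGFC shared EMP3 (0.48), NT5E (0.46) and FXYD3 (-0.41) with it and had SERPINE2 (0.46) besides. SEMA3C was most like FN1 (0.55), FBLN1 (0.50) and TIMP1 (0.48), which encode secreted matrix proteins and a protease inhibitor, and most opposed to MAL2 (-0.48). EMP3, FN1 and FBLN1 are mesenchymal genes of the EMT score, so their values are not separate from the rho with the score. VEGFA was nearest MALAT1 (0.35), MSLN (0.31) and LOXL2 (0.31) and farthest from NPM1 (-0.35). PLXNB2 was nearest the lysosomal genes PSAP (0.27) and GRN (0.26) and S100A6 (0.25), with SNRPB lowest (-0.26). For NRP2, VEGFB, PLXNA1 and PLXND1 no gene exceeded 0.19, led by NBR1 (0.13), RAB1B (0.15), DCBLD2 (0.18) and NR2F1 (0.17), and the lowest for the first 3 of these were SLC3A2 (-0.12), MT-ND5 (-0.12) and ACSL1 (-0.16).

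High-resolution plates were then set against low-resolution plates, over all cells. Of 12437 genes tested, 1547 (12.4%) were called and 6.26% were called higher, so the single gene of the 9 that was called is no more than the background. That gene was NRP1, at 38.6 and 34.7 CPM in the low-resolution and 47.1 and 50.6 CPM in the high-resolution plates, which do not overlap (log2 fold change 0.45, SE 0.13, edgeR adjusted p = 0.0358, n = 2 plates a group). The value was 0.47 with DESeq2 (adjusted p = 0.0613) and 0.41 to 0.50 in edgeR with any of the 4 plates left out (adjusted p = 0.0693 to 0.183), so its size stayed while the adjusted p passed 0.05. Such a fit leaves 1 plate in a group, which is assumed to vary like the plates of the other group. Without low-resolution replicate 1, the plate of the other flow cell, the log2 fold change was 0.49. Of 7 EMT markers, 4 were called between resolutions. VIM was higher in high-resolution plates by 0.94 (SE 0.13) on the log2 scale, FN1 by 0.77 (SE 0.11) and SNAI2 by 1.36 (SE 0.11), and CDH1 was lower (-0.68, SE 0.12), whereas EPCAM (-0.11, SE 0.11), ZEB1 (0.26, SE 0.26) and CDH2 (0.76, SE 0.37) were not called. Their part in the NRP1 value was not tested.

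The other 8 genes were not called. PLXNB2 was at 93.0 and 87.2 CPM against 71.2 and 67.4 CPM (log2 fold change -0.34, SE 0.11, edgeR adjusted p = 0.0646), and VEGFC at 40.4 and 31.0 CPM against 41.7 and 48.7 CPM (0.38, SE 0.14, edgeR adjusted p = 0.107). The plates of the groups did not overlap for 5 of the 9 genes (VEGFB, VEGFC, NRP1, NRP2 and PLXNB2), against 57.6% of all genes tested. SEMA3C differed least (0.00, SE 0.10). Among 19 listed partners tested, 3 were higher and 1 lower, and L1CAM, a neuropilin-binding adhesion protein, rose by 1.18 (SE 0.14) on the log2 scale. SEMA7A, which rose by 1.46 (SE 0.26), was the 1 called of 7 class 4 to 7 semaphorins. KDR, which fell by 1.03 (SE 0.30), was the 1 called of 2 VEGF receptors. No gene was called among 4 other plexins and 3 other class 3 semaphorins, against 12.4% of all genes tested.

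**Figure D5:**
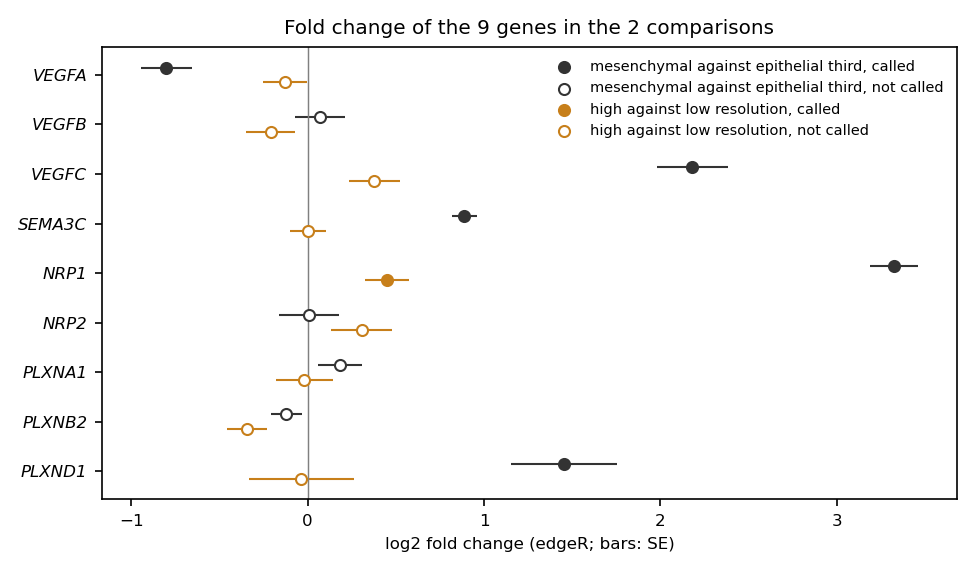
Log2 fold change (x axis, bars give the SE) of each gene between EMT tertiles (dark) and between high- and low-resolution plates (orange), with filled points for an adjusted p under 0.05 in edgeR. NRP1 stands at 3.32 and 0.45, and VEGFA is the called gene left of 0.

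Whether the difference between EMT tertiles itself differed between high- and low-resolution plates was tested with an interaction term, which was called for 254 (2.25%) of 11296 genes. VEGFA was the only one of the 9 that was called (log2 0.76, SE 0.17, edgeR adjusted p = 0.0321). Its fall was -1.20 (SE 0.11) within the low-resolution plates and -0.45 (SE 0.11) within the high-resolution plates, where replicate 2 went from 108 to only 94.2 CPM. At equal depth the term was 0.48 (SE 0.24, edgeR adjusted p = 0.437) and no longer called. The terms of VEGFC (0.84, SE 0.29, edgeR adjusted p = 0.166) and NRP2 (0.78, SE 0.25, edgeR adjusted p = 0.122) were similar in size and were not called, and that of NRP1 was -0.25 (SE 0.28).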

How the data were processed

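The authors deposited, for each of 4 plates, an expected count per gene and well: distinct UMIs with a correction for repeated draws out of 4096 sequences, unscaled and with spike-ins. Undoing the correction gave whole UMIs to within 1e-09 for every value. The submitters' processing notes name STAR 2.7.3a, Seurat 4 and hg38. The filter of the study kept wells of 2000 to 9000 features with a mitochondrial share below 40%, which left fewer cells here (1146) than are stated in the article for a cause that was not tested, spike-in rows were dropped and doublets were not called. Counts were log-normalized to 10000 per cell. The EMT score (M minus E) came from an implementation of gene set variation analysis with a Gaussian kernel, 1 fit per experiment, using 64 of 65 listed epithelial and 103 of 115 listed mesenchymal genes. Expected counts were summed over cells, rounded and tested with edgeR 4.0.16 (TMM, filterByExpr, quasi-likelihood, Benjamini-Hochberg), with DESeq2 1.42.0 as an alternative. Each SE is the size of the log2 fold change over the square root of F. Correlations across cells carry no p. S and G2/M scores are mean z-scores of the gene lists in Seurat 5.3.0. Wells with under 10000 UMIs were left out of thinned values, for which the EMT score and its tertiles were computed anew from the thinned counts. The scoring and edgeR steps were tested on simulated data.

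The 9 genes and the lists were chosen with earlier results of these data known. The named genes are the 9, the listed partners and markers, and, for each of the 9, the 3 genes with the highest mean rho and the 1 with the lowest, of which the one for PLXND1 is not reported here. The plates share the 384 well barcodes, and cells of the same well in 2 plates had median correlations of -0.00369 to 0.0499 against -0.00991 to -0.00447 for other wells. Alternatives (another normalization, filter, score, depth or split, DESeq2, each plate left out, replicate numbers as a block) are in the closing section. No authors' comparison columns were present. Promoters come from RefSeq (GRCh38.p14), with an entry for 7 of the 9 genes and none used for VEGFA and NRP1. The interaction fit has 2 residual degrees of freedom before spread is shared over genes. The depth of single cells limits PLXND1 most.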

Additional observations from a re-analysis of the deposited data

Results flagged for a closer look

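VEGFA was flagged at full depth: its difference between the highest and the lowest EMT tertile was 0.76 higher on the log2 scale in high- than in low-resolution plates, by a test of the difference itself (SE 0.17, edgeR adjusted p = 0.0321). At equal depth, with score and tertiles computed anew from the thinned counts, the difference was smaller and was not called. NRP2 was lower in the highest than in the lowest tertile in both low-resolution plates and higher in both high-resolution plates, with an interaction of 0.78 that edgeR did not call (adjusted p = 0.122).

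Of 27 groups of 4 plates, 3 held a plate far from the others, where chance gives about 1 group in 20. The gap of the outlying plate to its nearest neighbour, as a share of the whole range, was 0.857 for PLXND1 in the highest EMT tertile (low-resolution replicate 1, 6.59 CPM), 0.907 for the rho of VEGFB with the EMT score (low-resolution replicate 1, -0.11, against 0.06 to 0.08) and 0.844 for the rho of SEMA3C with it (low-resolution replicate 2, 0.40, against 0.46 to 0.47).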

How the results depend on the processing

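VEGFC, SEMA3C, NRP1 and VEGFA kept their direction and their call between EMT tertiles under all alternatives run. PLXND1 could not be tested at equal depth. The number of genes called between tertiles went from 4633 to 2966 with the plate left out of the design and to 3014 with cells thinned to 10000 UMIs. Of the 9 genes, 0 were called between high and low resolution by DESeq2, and 0 with any plate left out (0 to 0), though NRP1 kept its direction and size, while genes called over the whole table ranged from 982 (without low-resolution replicate 1) to 1172 against 1547. In the interaction, 2 of the 9 were called with no filter on low counts (VEGFC besides VEGFA) and 0 at equal depth. The cause of these changes was not tested.

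Values near 0 changed sign and were not called either way. Between tertiles, VEGFB was at -0.00359 with each plate cut into 2 ranges in place of tertiles, -0.0187 with no mitochondrial limit, -0.134 at equal depth, -0.0572 with a score of mean z-scores and -0.00618 to 0.251 with a plate left out. NRP2 was at -0.00931 with DESeq2, -0.0156 with 2 ranges, -0.00916 with the plate left out of the design, -0.0163 with no filter, -0.0930 at equal depth, -0.0269 with z-scores and -0.149 to 0.191 with a plate left out. Between resolutions, SEMA3C was at -0.00189 with mitochondrial rows left out, -0.0102 with no mitochondrial limit and -0.0434 to 0.0608 with a plate left out, and PLXND1 at 0.0110 with no mitochondrial limit and -0.115 to 0.0629 with a plate left out. With a plate left out VEGFA ranged from -0.279 to 0.0185 and PLXNA1 from -0.151 to 0.121 (0.0678 without low-resolution replicate 2). In the interaction, NRP1 was at 0.122 and PLXNA1 at -0.333 at equal depth, and PLXNB2 at -0.00449 with no filter.

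Same-numbered plates did not deviate together (r = -0.0238 across 12437 genes), so no pairing by replicate number was seen. Low-resolution replicate 1 was also on another flow cell by file names, so a pairing could be hidden. With the replicate block, NRP1 stayed at 0.449 (edgeR adjusted p = 0.0260) and 2023 genes were called between resolutions. Depth limits PLXND1 (29 to 41 UMIs a plate) and the VEGF receptors most.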
